A study of Mus musculus with 10 samples.

Results

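The genes described here encode vimentin, the 3 lamins and the proteins that join filaments to the nucleus. Their members were fixed by symbol as *Vim*, *Lmna*, *Lmnb1*, *Lmnb2*, *Lbr*, *Plec*, *Sun1*, *Sun2*, *Syne1* and *Emd*, and all 10 were found among the 13091 genes of the deposited tables. The RNA came from neutrophils differentiated in culture from clonal mouse bone marrow progenitors of the 129-SVEV strain. The progenitors had been immortalized with an estrogen-dependent HoxB8. They matured once estrogen was withdrawn and IL-3 and granulocyte colony-stimulating factor were added. The labels give 2 biological replicates of Vim+/+ and 3 of Vim-/- cells, each left unstimulated or given LPS at 25 ng/mL for 1 hour. The Vim+/+ replicates are numbered 1 and 3, with no replicate 2 among the samples. The 10 polyA libraries thus fell into 4 groups of 2 or 3. The study's methods describe each progenitor line as grown from 1 cell, but it is not stated which line gave which replicate or that the replicates came from different lines. All lines were made by HoxB8 transduction of bone marrow, and the labels call the Vim-/- cells a knockdown whereas the study derives them from knockout mice. The study asked how neutrophils function without vimentin. The authors' comparison columns were not used here, so no change with genotype or with LPS is given. What is described is the level of each gene, which the authors deposited as 1 mean of normalized counts over the libraries.

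Vimentin forms the cytoplasmic intermediate filaments of cells of mesenchymal origin, and plectin crosslinks these filaments to other structures, among them the nuclear envelope. Lamins are the nuclear members of the same filament family and line the inside of the nuclear membrane, where the lamin B receptor and emerin bind them. SUN proteins cross the perinuclear space to meet nesprins in the outer nuclear membrane, and together they form the LINC complex that couples the nucleus to the cytoskeleton. Mature neutrophils are known for a lobed and soft nucleus, for little lamin A and for their need of the lamin B receptor to form lobes.

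The mean normalized count was the same in all 4 tables for all 13091 genes. Over all genes it had a median of 907 and a lowest value of 5.08, and the means summed to 55507688. The depth of each library is unknown from these means, and the spread between libraries is not given with them, so the values below carry no SD and no n, and no difference between genes was tested. Every value pools 4 Vim+/+ and 6 Vim-/- libraries, so that levels in the 4 groups cannot be told apart within it. Fewer cells of a type and less RNA per cell cannot be told apart either. Unless another length or no length correction is named, levels are compared between genes per kilobase of the longest annotated transcript (GENCODE M21, on GRCm38). That length was known for 12046 of the genes (92.0%) and gave a median of 309.6 normalized counts per kilobase. Shares of the sum over all genes are not corrected for length and grow with the number of genes in a list.

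The labelled cell type was checked against its markers. All 14 neutrophil markers were listed, with levels per kilobase from 11905 for *Cxcr2*, above 97.4% of all genes, to 2487150 for *S100a9*, and their counts made up 8.45% of the sum over all genes. The 7 markers of granulocyte progenitors were listed as well, among them *Mpo* at 44276, *Prtn3* at 62605 and *Elane* at 22303 per kilobase, and made up 0.440% of the sum. *Prtn3*, *Mpo*, *Elane*, *Ms4a3* and *Ctsg* each lay above 97.3% or more of all genes per kilobase, where *Cxcr2*, the lowest neutrophil marker, lay above 97.4%. Of the 7 progenitor markers, 6 lay above the median of all genes per kilobase. *Kit*, a receptor of progenitor cells, lay below it at 205.1, and *Cd34*, a progenitor surface marker, stood at 837.2. Of the monocyte and macrophage markers 5 of 7 were listed with 0.0861%, of the mast cell and basophil markers 3 of 4 with 0.0535%, and of the lymphocyte markers 1 of 6, *Cd79a* at 57.5 per kilobase. None of the 5 erythroid markers was listed, and of the fibroblast and endothelial markers 2 of 6 were, *Pecam1*, which leukocytes also express, at 6430 per kilobase and *Col1a1* at 71.4. Among the monocyte and macrophage markers *Ly6c2* stood at 9881, *Cd68* at 5450 and *Adgre1* at 3111 per kilobase. Of the 5 listed, 4 lay above the median of all genes, with *Ccr2* below it at 219.2. Among the mast cell and basophil markers *Cpa3* stood at 18148. Of the 3 listed, 2 lay above that median, with *Ms4a2* below it at 248.1. What cells other than neutrophils contributed to the levels of filament and nuclear envelope genes was not tested.

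Vimentin and its linker plectin both lay well above the median of all genes per kilobase. *Vim*, on chromosome 2 of GRCm38 from 13574311 to 13582826, had a mean normalized count of 39926. The mean includes the 6 libraries of Vim-/- cells. Since counts cannot be negative, a mean of 39926, if taken evenly over the 10 libraries, puts an upper limit of 2.5 times that value, 99815, on the mean of the 4 Vim+/+ libraries, and of 66543 on that of the 6 Vim-/- libraries. Per kilobase, *Vim* stood at 13645, the highest of the 10 genes and above 97.7% of all genes. *Plec*, on chromosome 15 from 76170974 to 76231378, encodes plectin and had a mean normalized count of 21676. Its longest transcript has 15455 bases, so that per kilobase it stood at 1403, above 80.3% of all genes. Among the 11188 genes for which each length used was known, it lay above 79.1% with the longest transcript, above 63.6% when the coding length of every gene was used, and above 62.2% with the median transcript lengths.

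**Figure D1:**
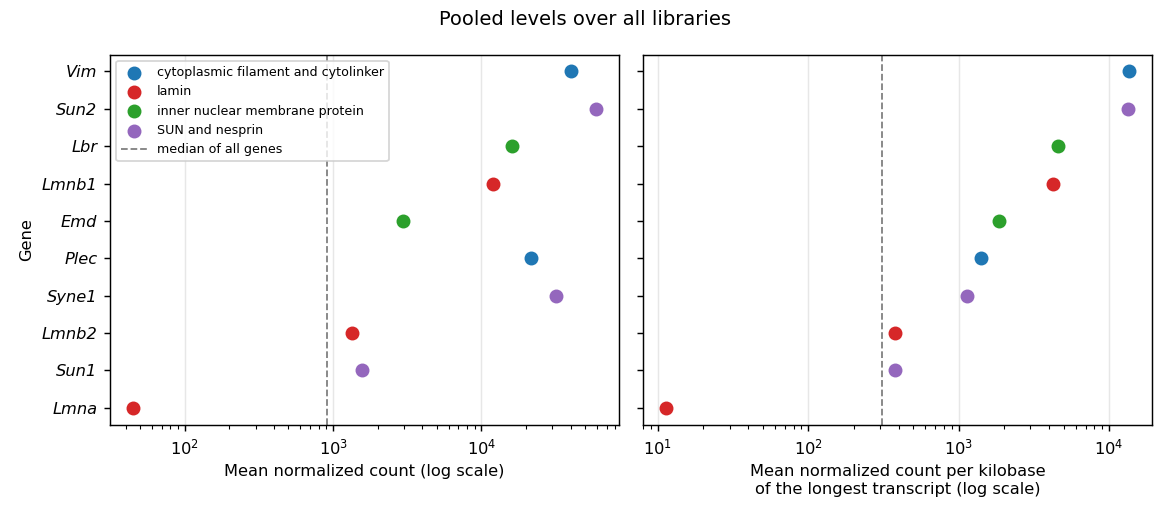
Mean normalized count over all libraries (left) and the same value per kilobase of the longest transcript (right) for the 10 genes, 1 point per gene, coloured by role, on log axes. The left panel is not corrected for length and does not rank the genes. The dashed lines mark the medians of all genes, 907 and 309.6, and on both scales *Lmna* is the 1 gene to the left of them.

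The lamins were far apart. *Lmnb1*, which encodes lamin B1 and lies on chromosome 18 from 56707813 to 56753424, had a mean normalized count of 11975, and *Lmnb2*, which encodes lamin B2 and lies on chromosome 10 from 80901363 to 80918245, one of 1338. *Lmna*, which encodes lamins A and C and lies on chromosome 3 from 88481148 to 88509932, had a mean normalized count of 44.9. Per kilobase, *Lmnb1* stood at 4212, *Lmnb2* at 379.1 and *Lmna* at 11.4, with 8.19% of all genes below it. *Lmna* was thus the lowest of the 10 genes, with a per-kilobase level below that of *Lmnb1* by a factor of 371 and below that of *Lmnb2* by a factor of 33.3. With the median transcript length these factors were 234 and 18.3. Of the summed per-kilobase level of the lamins, *Lmnb1* made up 91.5%, *Lmnb2* 8.24% and *Lmna* 0.247%. With other definitions of gene length, the share of *Lmna* ran from 0.298% to 0.395%.

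The proteins of the inner nuclear membrane that bind lamins were both above the median of all genes per kilobase. *Lbr*, on chromosome 1 from 181815315 to 181842401, encodes the lamin B receptor, a sterol reductase that also tethers chromatin. Its mean normalized count was 16089, and its per-kilobase level was 4584, above 93.6% of all genes. *Emd*, on chromosome X from 74254674 to 74261563, encodes emerin, a LEM-domain protein that binds lamins and a chromatin protein. Its mean normalized count was 2965 and its per-kilobase level 1859, which *Lbr* exceeded by a factor of 2.47. With the median transcript length that factor was 7.65, and with the coding length 2.25. The level of *Lbr* per kilobase was above that of *Lmna* by a factor of 403. That factor was 878 with the median transcript length and 381 with the coding length. *Lbr* and *Lmnb1* stood at 4584 and 4212 per kilobase of the longest transcript, but at 25661 and 6839 with the median transcript length.

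**Figure D2:**
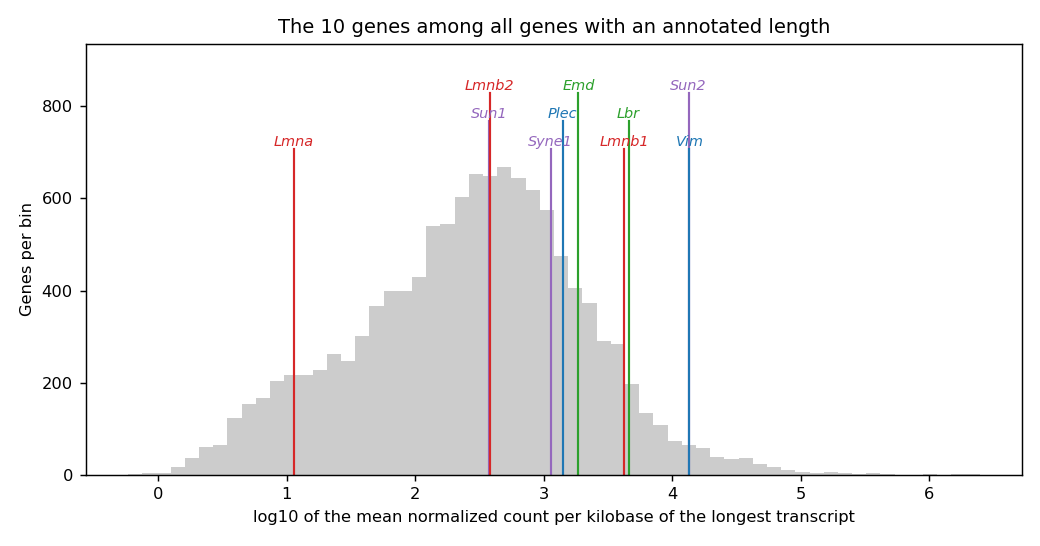
Histogram of the log10 mean normalized count per kilobase of the longest transcript for 12046 genes, with 1 coloured line for each of the 10 genes, in the colours of the plot of pooled levels by role. *Vim* and *Sun2* lie in the right tail, above 97.7% and 97.6% of genes, and *Lmna* in the left, with 8.19% of genes below it.

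Lamin A and the B-type lamins are made with a tail that is farnesylated on a cysteine, and prelamin A is later cleaved. The last 15 coding bases before the stop codon are shown for 2 of these genes, since they carry that signal, with the cysteine codon in capitals. They were read from GENCODE M21 transcripts on the minus strand of GRCm38, at chr3:88482077-88482091 for *Lmna* and chr10:80902862-80902876 for *Lmnb2*, in the last coding exon of each.
Lmna: aacTGCagcatcatg
Lmnb2: ggcTGCcgactgatg
The enzymes that act on this tail were all listed, 5 of 5, from 115.2 per kilobase for *Fntb* to 1840 for *Fnta*, which encode the subunits of farnesyltransferase. *Zmpste24*, the protease that cleaves prelamin A, stood at 768.0 per kilobase, and *Icmt*, the methyltransferase that acts on the farnesylated cysteine, at 483.8. Per kilobase the enzymes had a median of 592.0, and 4 of the 5 lay above the median of all genes.

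Of the SUN proteins of the LINC complex, *Sun2* had the higher level per kilobase. *Sun2*, on chromosome 15 from 79724068 to 79742536, had a mean normalized count of 59354. *Sun1*, on chromosome 5 from 139200564 to 139249839, had a mean normalized count of 1556. Per kilobase *Sun2* stood at 13450 and *Sun1* at 376.4, a ratio of 35.7. That ratio was 10.4 with the median transcript length and 47.6 with the coding length. *Syne1*, on chromosome 10 from 5020192 to 5550692, encodes nesprin-1, which SUN proteins bind. Its mean normalized count was 31695, but its longest transcript has 27908 bases, and per kilobase it stood at 1136, above 77.0% of all genes. Among the 11188 genes with each length known, it lay above 75.6% with the longest transcript, above 58.1% with the coding lengths and above 89.7% with the median transcript lengths.

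The 10 genes together held 0.336% of the sum over all genes. Of the 10, 9 lay above the median of all genes per kilobase, and 4 lay in the top 10% (*Vim*, *Sun2*, *Lbr* and *Lmnb1*). Among the 11188 genes with each length known, 9 lay above the median with the longest transcript as well. When other lengths were used for every gene, 7 or 8 did, with *Lmnb2*, *Sun1* or both beside *Lmna* below it, and 3 or 4 lay in the top 10%, with *Vim*, *Sun2* and *Lbr* among them each time. The order per kilobase, from the highest, was *Vim*, *Sun2*, *Lbr*, *Lmnb1*, *Emd*, *Plec*, *Syne1*, *Lmnb2*, *Sun1* and *Lmna*, over a range of 1200-fold. Without a spread over libraries, neighbours in this order cannot be said to differ, and *Vim* and *Sun2* were apart by a factor of 1.01 only. The mean of *Vim* pools 4 Vim+/+ libraries with 6 of Vim-/- cells, so its place in this order is not that of Vim+/+ cells alone.

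The levels of several genes depended on the transcript length that was used. *Syne1* has 9 annotated transcripts with a median length of 3894 bases, against 27908 for the longest. Divided by the median length its level was 8139 in place of 1136, which puts it above *Plec*. For *Lbr*, with 8 transcripts of a median of 627 bases, the level was 25661 in place of 4584. For *Sun1*, with 20 transcripts of a median of 746.5 bases, it was 2084 in place of 376.4. The median lengths of *Syne1*, *Lbr* and *Sun1* are below their coding lengths of 26397, 1878 and 2739 bases. The longest transcripts of *Vim*, *Lmna* and *Sun2* are annotated as retained introns, and with the principal transcript they stood at 18206, 14.2 and 16003. Which transcripts the neutrophils made cannot be read from 1 value per gene.

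**Figure D3:**
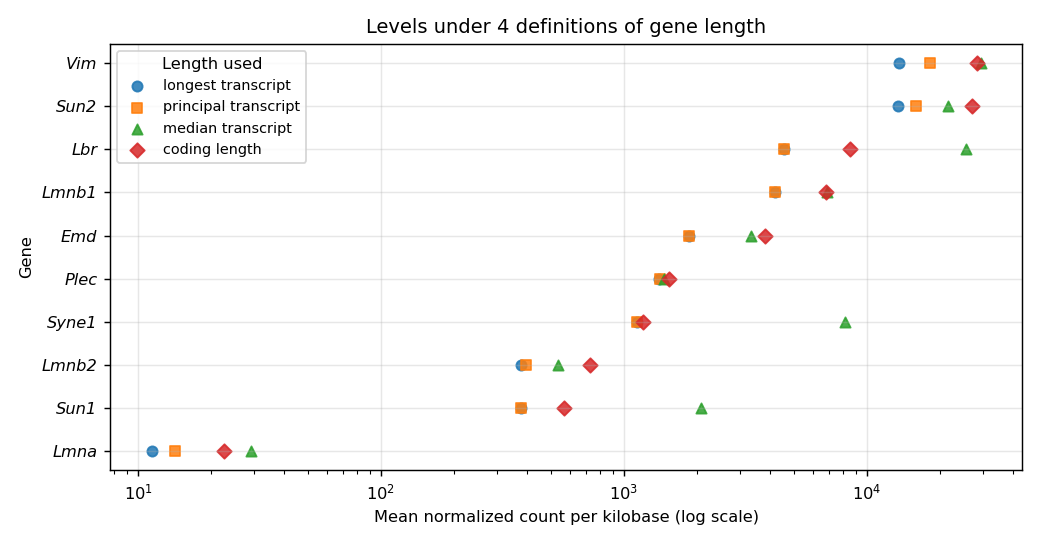
Mean normalized count per kilobase (log axis) for the 10 genes, with 1 symbol for each of 4 lengths, those of the longest, the principal and the median transcript and the coding length. *Lmna* is lowest and *Vim* highest under each, while *Syne1* runs from 1136 to 8139 and *Lbr* from 4584 to 25661.

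Some exons are shared with other annotated genes, and counting by strand was not stated. *Plec* shares 205 exonic bases with *Parp10* on the same strand, which had a mean normalized count of 2901. *Emd* shares 343 bases with the pseudogene *Gm14686*, and *Lbr* 440 with *Dnah14* on the other strand. *Lbr* also shares 69 bases with *Gm26004*, *Sun1* 302 with *4930520M14Rik* and *Sun2* 147 with *Gm16575*. Apart from *Parp10* none of these was listed.

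Other cytoplasmic intermediate filament genes were low next to *Vim*. Of 19 such genes 6 were listed, and all 6 lay below the median of all genes per kilobase. *Krt80*, a keratin, was the highest at 120.4 per kilobase, followed by *Nefh*, a neurofilament subunit, at 55.3 and *Des*, the filament protein of muscle, at 15.8, against 13645 for *Vim*. The 13 genes that were not listed were *Gfap*, *Prph*, *Nes*, *Synm*, *Ina*, *Nefl*, *Nefm*, *Krt5*, *Krt8*, *Krt14*, *Krt18*, *Krt19* and *Bfsp1*. Of 6 other plakins and cytolinkers, the family of *Plec*, 1 was listed, *Macf1*, which joins microtubules to actin. Its level was 135.5 per kilobase, against 1403 for *Plec*. *Dst*, *Dsp*, *Evpl*, *Ppl* and *Eppk1* were not listed.

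Of a list of 9 other SUN, nesprin, torsin and torsin activator genes 7 were listed, with a median of 412.5 per kilobase, and 4 lay above the median of all genes, 3 of them torsin or torsin activator genes. *Tor1aip1* and *Tor1aip2*, which activate torsins, stood at 2359 and 978.1, and *Tor1a*, a torsin of the perinuclear space, at 2704. *Sun3* and *Sun5* were not listed. *Syne2*, *Syne3* and *Syne4*, named as relatives of *Syne1* after their values were seen, encode nesprins and stood at 98.8, 412.5 and 82.2 per kilobase, against 1136 for *Syne1*. All 8 other inner nuclear membrane proteins and chromatin tethers were listed, with a median of 1027 per kilobase, and 6 lay above the median of all genes. *Tmpo*, which encodes the LAP2 proteins, stood at 1273 per kilobase, *Tmem43*, an emerin partner, at 1892 and *Lemd2*, a LEM-domain protein like emerin, at 1268.

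**Figure D4:**
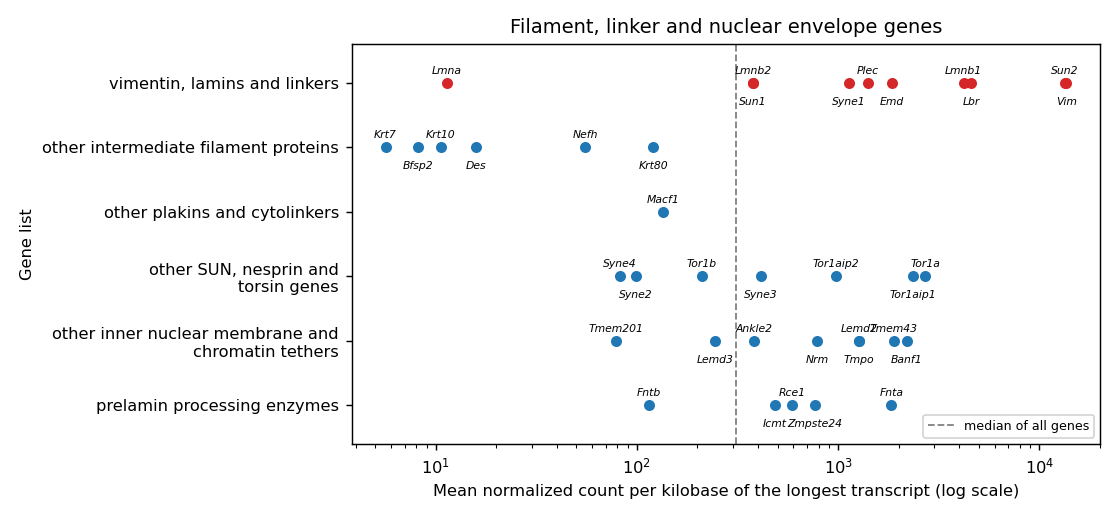
Mean normalized count per kilobase of the longest transcript (log axis), 1 point per listed gene, for the 10 genes (top row) and 5 lists of related genes, with the median of all genes (309.6) as a dashed line. The 6 other intermediate filament genes lie between 5.63 and 120.4, below *Vim* at 13645, and *Lmna* at 11.4 lies within their range.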

How the data were processed

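PolyA RNA of 10 libraries was sequenced. Per the labels and the study's methods, the authors used Cutadapt 4.4 for trimming and STAR 2.7.10b for alignment to mm10 and quantification, derived covariates for unwanted variation (RUVSeq), and normalized and modelled the counts with DESeq2 1.26.0. The annotation, the strand setting and the filter on low counts are not given in the sources used here. The deposited signal used is baseMean, the authors' mean of normalized counts over the libraries, which has no SD or n. The other 9 columns of each table hold the authors' fold changes, standard errors, test statistics, p-values and calls, and were not used, so no test was made.

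Levels were divided by the length of the longest GENCODE M21 transcript, matched by symbol. Positions come from RefSeq on GRCm38.p6, the assembly of mm10. Percentiles are the share of genes with a lower value, and their function was tested on simulated data. The median transcript, the coding length, no length correction and only genes with a mean of at least 100 were tried, as was the principal transcript (APPRIS), which was added after the data were seen. All 10 genes are named, with at most 3 listed genes of the highest mean, and those not listed, for each related list, and beside them *Fntb* as the end of a range, *Syne2*, *Syne3* and *Syne4*, and marker genes. The members and lists were chosen with earlier results of these data known. Python 3.11.15, numpy 2.4.6, pandas 2.3.3, scipy 1.17.1 and matplotlib 3.10.9 were used.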

Additional observations from a re-analysis of the deposited data

How the results depend on the processing

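No paired analysis was possible because the value used is 1 mean over all libraries, so no library could be left out either. Of the 45 pairs among the 10 genes, all 45 kept their per-kilobase order with the coding length and with the principal transcript (an alternative chosen after seeing the data), 39 with the median transcript and 36 with no length correction. Without length correction the log2 ratio of *Vim* over *Sun2* turned to -0.57 and that of *Plec* over *Syne1* to -0.55, and *Lbr* over *Emd* rose to 2.44. With the median transcript length the log2 ratio of *Plec* over *Syne1* turned to -2.48, and the others that moved by over 1.5 times were *Lmnb1* over *Lmna* at 7.87, *Lmnb2* over *Lmna* at 4.19, *Lbr* over *Lmna* at 9.78, *Lbr* over *Emd* at 2.94 and *Sun2* over *Sun1* at 3.37. The coding and the principal length were known for 11188 genes against 12046 for the longest transcript, and that smaller set alone changed the percentiles of the 10 genes by -2.59 to -0.136 points. Within those 11188 genes, a comparison chosen after seeing the data, replacing the longest transcript of every gene changed them by -17.5 to -0.304 points with the coding length, by -16.9 to 17.5 with the median transcript and by -2.65 to 0.787 with the principal transcript. Without length correction, among all 13091 genes, they changed by -10.1 to 21.1. Among genes with a mean of at least 100, which leaves out *Lmna*, those of the other 9 changed by -9.96 to -0.512 points. Means over all libraries limit what can be said: they hold neither depth, nor spread, nor the level of any group.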
